A study of Mus musculus with 9 samples.

Results

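S-dominant cones are defined here as cone photoreceptors of the mouse retina that carried more mRNA molecules of S-opsin (Opn1sw) than of M-opsin (Opn1mw). A cell counted as a cone when at least 3 of 5 cone genes (Arr3, Gnat2, Pde6h, Pde6c and Cngb3) had at least 1 unique molecular identifier (UMI, the tag that marks 1 captured mRNA molecule) and their sum reached 5 per 10000 UMIs of the cell. Of 31089 cells, 3119 met the cone rule, and 1436 of these were S-dominant. Members were thus chosen by their measured UMIs of 5 cone genes and the 2 opsins, and these 7 genes support no result below. They were tested only between dKO and control mice. In 361 of the 1436 no Opn1mw UMI was found, and these cells are described apart from the 1075 that had at least 1. The other 1683 cones had as many Opn1mw as Opn1sw UMIs, more Opn1mw UMIs, or no opsin UMI.

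Single-cell RNA-seq was made from the retinas of 9 mice, with both retinas of 1 mouse pooled as 1 sample. All mice carried RPE65-ERT2-Cre with floxed miR-211 and miR-204 alleles, so that Cre is made in the retinal pigment epithelium and active only after tamoxifen. The 4 control mice received corn oil, and the 5 double knockout (dKO) mice received tamoxifen at 75 mg/kg in 5 injections from postnatal day 28, with retinas collected 6 months later. The mice are called S01 to S04 (control) and S05 to S09 (dKO). The deletion is thus directed at the epithelium next to the photoreceptors and not at the cones, and neither microRNA gene is among the genes counted, so that the deletion could not be checked. The labels of S06 and S07 name 1 animal number for both, but S06 had Xist, an RNA of female cells, at 1377 CPM (UMIs of a gene per 1000000 UMIs) and genes of the Y chromosome at 4.43 CPM, and S07 had 46.5 and 404 CPM, so that the libraries came from a female and a male. By the same RNAs S04, S05 and S07 were male (Xist 35.4 to 51.8 CPM) and the remaining 6 mice female (1377 to 1570 CPM). The mouse was the replicate throughout. Between control and dKO mice, p-values set a difference against the spread between mice. Where classes of the same mice were compared, they set it against how the class difference varied from mouse to mouse.

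Cones are the photoreceptors of daylight and color vision. In mice most cones can make both opsins in amounts that depend on position, with M-opsin higher in dorsal and S-opsin higher in ventral retina, and a minority, the true S-cones, make S-opsin alone. Thyroid hormone receptor beta (Thrb) and its partner Rxrg hold back S-opsin and favor M-opsin during development, and Rorb and Crx drive opsin genes. Position in the retina was not recorded for the dissociated cells.

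Opn1sw lies on the minus strand of chromosome 6 (GRCm39, chr6:29376670-29388467), with 5 exons in its canonical transcript, and its annotated bounds overlap the plus-strand gene Calu, so that reads there can be assigned only by strand, and the use of strand is not given in the sources used here. Opn1mw lies on the plus strand of the X chromosome (chrX:73171070-73194366) and has 6 exons. The promoter letters are shown because Thrb, Rxrg and Rorb are nuclear receptors, whose binding sites contain the letters AGGTCA. Both strands were searched for AGGTCA and for the same letters read from the other strand, which are TGACCT, in RefSeq promoter windows from 250 bases before to 50 after each gene's start (GRCm38.p6). The Opn1sw window held 2 matches, in capitals here, at positions -202 and -132 from the start, at chr6:29380698-29380727 and chr6:29380628-29380657, both written on the minus strand.
Opn1sw, position -202: tccaaagaatatAGGTCAgcatcctccagg
Opn1sw, position -132: tatccaggtttcTGACCTcaatctcttatc
The window of Opn1mw held 0 matches. A match is only a run of letters, and 4900 of 27025 genes (18.1%) held at least 1 in such windows.

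Opsin counts separated the cones into groups that were far from even. The median S-dominant cone had 39 Opn1sw UMIs (quartiles 26 and 53, highest 133) and 7 Opn1mw UMIs (quartiles 0 and 16, highest 82), whereas the median of the other cones was 0 Opn1sw and 26 Opn1mw UMIs. Of the S-dominant cones, 361 had Opn1sw alone, 577 had Opn1sw at a share above 0.75 but below 1 of their opsin UMIs, and 498 had a share above 0.5 and up to 0.75. Among the other cones 770 had Opn1mw alone, 41 had both opsins in equal number and 419 had neither. The 361 cells without Opn1mw still had a median of 35 Opn1sw UMIs. At least 1 UMI of both opsins was found in 1075 of the 1436 cells (74.9%), and at least 10 Opn1mw UMIs in 41.6%. Of the S-dominant cones, 1156 had at least 2 times as many Opn1sw as Opn1mw UMIs. These counts are not corrected for transcript length. Per kilobase of the canonical transcript, the level in S-dominant cones over the 9 mice (in CPM over the summed cells of a mouse) was 711 to 1355 (median 1071) for Opn1sw and 391 to 715 (median 482) for Opn1mw.

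**Figure D1:**
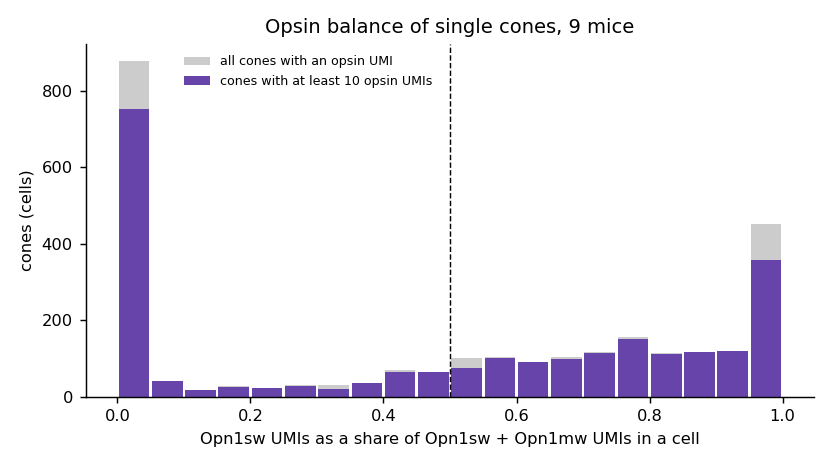
The x axis gives the share of Opn1sw among the opsin UMIs of a cell and the y axis the number of cones, for all cones with an opsin UMI (gray) and those with at least 10 opsin UMIs (purple). Cones pile up at both ends, where 361 carried Opn1sw alone and 770 Opn1mw alone, and the 1075 S-dominant cones with both opsins lie to the right of the dashed line at 0.5, where the first bin also holds the 41 cells with equal counts.

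At the edge of the rule, 86 S-dominant cones had only 1 more Opn1sw than Opn1mw UMI, of which 65 had no Opn1mw UMI and 14 had at least 10 opsin UMIs in all. Just outside it, 460 cones had equal counts, 419 of them at 0, and 81 had 1 more Opn1mw than Opn1sw UMI. RNA set free from broken cells, or doublets, can give a few opsin UMIs to cells that do not make opsin, and the source was not tested here. At least 1 Opn1sw UMI was found in 6.74% of 14663 rod-like cells (95% Clopper-Pearson interval 6.34 to 7.16, median depth 4755 UMIs) and in 11.9% of 2372 Müller glia-like cells (10.7 to 13.3, median depth 15442 UMIs). The interval covers counting error only. Opn1mw was found in 6.04% of the rod-like and 12.2% of the Müller glia-like cells, against 74.9% of the S-dominant cones, so that a single Opn1mw UMI does not show that a cell made M-opsin. None of these rod-like or glia-like cells reached 10 UMIs of either opsin, whereas 91.5% of the S-dominant cones had at least 10 of Opn1sw, at a median depth of 12321.5 UMIs.

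Of the 1436 cells, 1290 had all 5 cone genes of the rule and 66 had just 3. A total of 111 members (7.73%), 94 of them among the 361 cells without Opn1mw, had fewer than 10 opsin UMIs, and these had a median of 6573 UMIs per cell. Their Arr3 level, cone arrestin, was 647 CPM against 5599 CPM in the 1325 members with at least 10 opsin UMIs, and Gnat2, the cone transducin alpha subunit, was at 119 against 705 CPM. At least 3 of 4 bipolar cell markers (Grm6, Trpm1, Prkca and Cabp5) were found in 27.0% of the 111 cells and in 11.7% of the 1325. At least 3 of 4 rod markers (Gnat1, Nrl, Nr2e3 and Pde6b) were found in 43.2% of the 111 and in 21.8% of the 1325. Markers of other cell types were thus more frequent in the low-opsin cells, and the word cone stands below for the cells taken by the rule. Among the other cones, the 419 cones without any opsin UMI had Arr3 at 134 CPM, and 46.3% of them had at least 3 bipolar markers. For this reason each comparison is given a further time among cones with at least 10 opsin UMIs (1325 S-dominant and 1087 other cones), a setting that was chosen after seeing the data.

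The libraries and mice differed in ways that touch some genes. Total UMIs per mouse ranged from 15079143 to 66528160, of which the S-dominant cones held 995984 to 3967440. Summed rod markers in S-dominant cones stood at 29, 14.5 and 31.1 per 10000 UMIs in S04, S05 and S07 and at 1.51 to 4.62 in the remaining mice. In the other cones they ranged from 2.93 to 34.7, with the same 3 mice highest, which are the 3 males. Summed bipolar markers were at 2.98 to 15.4 (median 8.65) in S-dominant and at 8.50 to 18.6 (median 12.0) in other cones, and at 2.16 to 15.6 (median 8.20) and 3.65 to 16.9 (median 7.59) among cells with at least 10 opsin UMIs. The part of this RNA in the results was not tested. Barcodes were combined over 8 sublibraries, and 273 S-dominant cones shared a barcode combination with a cell of another sublibrary of the same mouse, while none was shared between mice. Doublets were not removed.

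The genes used by the rule are described without a test, in CPM with TMM-normalized library sizes as for the genes tested below. Opn1sw stood at 1725, 2698 and 3362 CPM (lowest, median and highest mouse) in S-dominant cones and at 142, 229 and 476 CPM in other cones. Opn1mw was at 482, 579 and 864 CPM in S-dominant cones and at 1055, 1959 and 2684 CPM in the others. The opsin ranges of the classes did not overlap, which the rule itself brings about. Arr3 was at 3513, 5720 and 7990 CPM in S-dominant cones and at 3444, 6727 and 9191 CPM in other cones. Gnat2 was at 442, 752 and 947 against 297, 566 and 698 CPM. The phosphodiesterase subunits Pde6c and Pde6h, which break down cyclic GMP in light, had medians of 2089 against 1774 CPM and of 369 against 247 CPM. The channel subunit Cngb3 had medians of 2806 and 2607 CPM. All 5 cone genes overlapped between the classes over the 9 mice.

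The first comparison asked which other genes differed between S-dominant cones and the other cones of the same mice. Beside Opn1sw the S-dominant cones were most clearly marked by Ccdc136, the coiled-coil gene next to Opn1sw on the chromosome, by Eya1, a transcriptional coactivator and phosphatase, by Syndig1l, a synapse-related membrane protein gene, and by Cdcp3, each at several times the level of the other cones. Lower in S-dominant cones were Lhx4, a LIM homeobox factor, and Smug1, a uracil-DNA glycosylase of base excision repair. So were the GABA receptor subunit gene Gabrr3 and the noncoding RNA gene Gm44532. In edgeR's quasi-likelihood test with the mouse as a block, 1618 of 11566 genes (14%) passed an adjusted p of 0.05, 753 higher (6.51%) and 865 lower (7.48%). Among cones with at least 10 opsin UMIs the count was 472 of 10500 (4.5%), with 238 higher (2.27%) and 234 lower (2.23%). Of the genes called first, 186 of the 753 higher and 116 of the 865 lower ones were called in the same direction there, and 4 of the lower ones were called higher. The size of this list therefore rests in part on cells with few opsin UMIs, and the genes below are given under both settings.

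Of the 15 higher genes with the smallest p, all 15 were higher in S-dominant cones in 9 of 9 mice, which follows largely from their choice by p in these mice. The ranges of 6 did not overlap with the other cones, and the share of all genes without overlap was not counted. All 15 passed again among cones with at least 10 opsin UMIs, which are a part of the same cells and no independent test. The same limits apply to the other lists of 15 genes below. Ccdc136 was at 1286, 2096 and 2640 CPM (lowest, median and highest mouse) in S-dominant and at 232, 415 and 553 CPM in other cones. Every S-dominant value lay above every other value, with a log2 fold change of 2.37 ± 0.10 (SE, adjusted p = 4.56e-08, edgeR) and of 2.11 among cones with at least 10 opsin UMIs. Ccdc136 lies on the plus strand at chr6:29396279-29427023, with 7811 bases between its bounds and those of Opn1sw. Eya1 was at 82.9, 162 and 256 CPM against 11.4, 22.1 and 47.8 CPM, again without overlap, and its log2 fold change was 2.48 ± 0.14 (adjusted p = 3.74e-07, edgeR). Syndig1l was at 50.9, 101 and 116 CPM against 11.0, 17.4 and 24.9 CPM (2.31 ± 0.13 on the log2 scale). Cdcp3 was at 719, 890 and 1625 CPM against 110, 228 and 328 CPM (2.26 ± 0.16). These differences kept most of their size with at least 10 opsin UMIs, at 2.13, 2.02 and 2.14 for Eya1, Syndig1l and Cdcp3.

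The remaining higher genes had smaller differences or lower levels. Gm12404, which had few UMIs, was at 14.9, 21.9 and 29.7 CPM against 2.29, 3.96 and 6.81 CPM (log2 fold change 2.22). Socs3, a feedback inhibitor of JAK-STAT signaling, was at 4.20, 13.1 and 16.7 CPM against 0.788, 3.94 and 6.10 CPM (1.74 ± 0.15). Pgs1, an enzyme of cardiolipin synthesis, was at 76.8, 145 and 183 CPM against 42.6, 63.3 and 93.9 CPM (1.03 ± 0.07). Socs3 and Pgs1 are neighbors on chromosome 11, with 16219 bases between them and on opposite strands, and in both the ranges overlapped although each mouse went the same way. Rgl3, a Ral guanine nucleotide exchange factor, differed by 1.03 and 0.70 on the log2 scale (all cones and those with at least 10 opsin UMIs). The potassium channel accessory subunit Kcne2 differed by 0.99 and 0.59, and the chloride channel regulator family gene Clca1 by 0.91 and 0.52. The adapter gene Klhl5 differed by 0.86 and 0.81 and the corepressor gene Tle1 by 0.81 and 0.65. The transcription factor Bach2, the vesicle GTPase Rab27b and the scaffold gene Magi2 differed by 0.55, 0.74 and 0.41, and by 0.32, 0.39 and 0.30 under the stricter setting. Magi2 was the most abundant of them, at 3612, 4358 and 4859 CPM in S-dominant against 2742, 3268 and 3760 CPM in other cones. En2, a homeobox gene of midbrain patterning that was chosen after its values were seen, was at 11.2, 22.6 and 32.1 CPM against 0, 0.388 and 5.06 CPM. These values came from 489 and 40 UMIs in all (log2 fold change 3.96 ± 0.40). En2 was near the floor in the other cones and passed the filter on low counts through the S-dominant cones, so that its difference is a description only.

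Of the 15 lower genes with the smallest p, all 15 were lower in S-dominant cones in 9 of 9 mice, but only 8 were called again among cones with at least 10 opsin UMIs, 6 were not and 1 was not tested there. Lhx4 was at 28.3, 48.4 and 71.0 CPM in S-dominant and at 86.9, 143 and 247 CPM in other cones, without overlap (log2 fold change -1.59 ± 0.07, adjusted p = 9.76e-08, edgeR), and the difference was -0.93 under the stricter setting. Smug1 was at 25.1, 43.8 and 68.2 CPM against 133, 178 and 236 CPM (-2.05 ± 0.17, and -2.41 under the stricter setting). Gabrr3, a subunit of GABA receptors, was at 42.5, 57.7 and 93.8 CPM against 114, 186 and 238 CPM (-1.44 and -0.81). Lhx4, Smug1 and Gabrr3 therefore separated the classes in each mouse. The alpha kinase gene Alpk2 was at 9.90, 12.0 and 16 CPM against 26.4, 34.0 and 40.4 CPM (-1.39 and -1.70). D430019H16Rik was at 0.599, 3.01 and 7.90 CPM against 17.5, 28.7 and 45.6 CPM (-2.85 and -3.28), from 101 and 799 UMIs. In S-dominant cones it was near the floor, so that its difference is a description only. D930007P13Rik, which is separated from Smug1 on chromosome 15 by 5916 bases and lies on the same strand, was at 2.10, 5.86 and 7.29 CPM against 11.0, 23.4 and 32.6 CPM (-2.13 and -2.47). The ranges of all 8 of these genes, with Gm35842 and Gm44532 below, did not overlap between the classes.

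**Figure D2:**
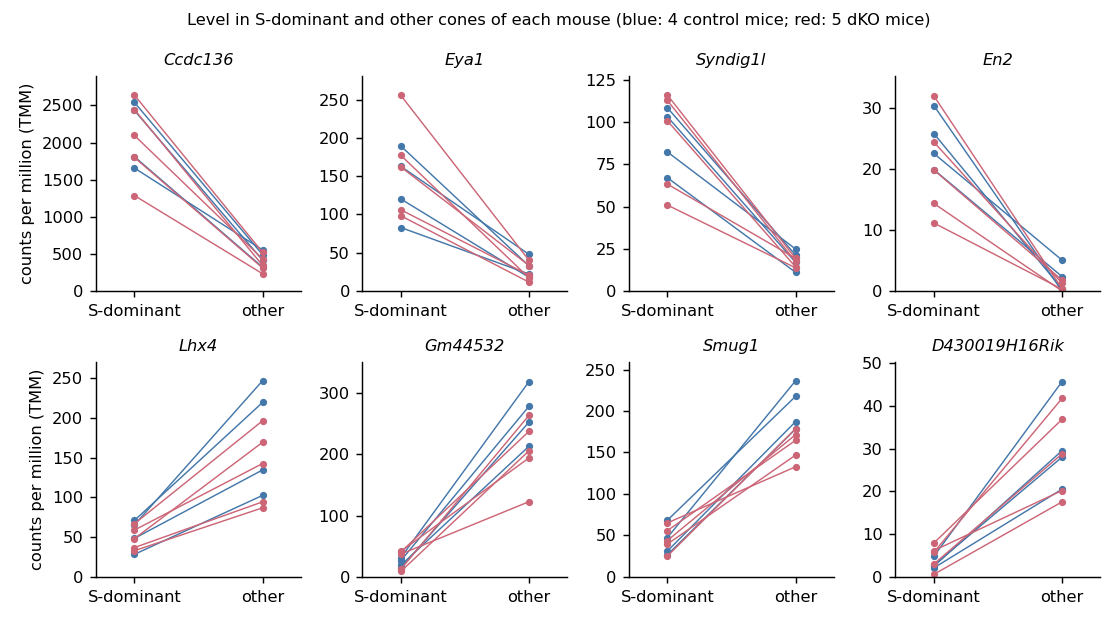
Each panel gives the TMM-normalized level of 1 gene in CPM on the y axis, with a line joining the S-dominant (left) and the other cones (right) of each mouse, in blue for the 4 control and red for the 5 dKO mice. Ccdc136, Eya1, Syndig1l and En2 fall from left to right and Lhx4, Gm44532, Smug1 and D430019H16Rik climb in each of the 9 mice. All were chosen by their values or p in these mice.

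The 7 lower genes that were not called again lost most of their difference once cells with few opsin UMIs were left out. Nfib, a transcription factor of the nuclear factor I family, was at 28.3, 74.7 and 133 CPM in S-dominant and at 88.3, 281 and 502 CPM in other cones, a difference of -2.01 on the log2 scale that became -0.20 (adjusted p = 0.688, edgeR) among cones with at least 10 opsin UMIs. The guidance receptor gene Epha3 went from -2.01 to -0.06 and Cadps2, which acts in vesicle release, from -2.31 to -0.15. Cacna2d1, an accessory subunit of calcium channels, went from -1.56 to 0.24, and Gm48693 from -1.74 to 0.31. Ccdc88c went from -1.24 to -0.34. Gsg1, at -2.40, was too low to be tested under the stricter setting. Under that setting Nfib was at 28.3, 44.2 and 64.0 CPM in S-dominant and at 20.1, 54.5 and 94.7 CPM in other cones, so that the main change was the lower level in the other cones.

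Of the 15 lower genes, Gm44532 and Gm35842 are neighbors of Nr2f2. Nr2f2 (COUP-TFII), an orphan nuclear receptor known from dorsal retina, lies on chromosome 7, and Gm28258, Gm44532, Gm35842 and Gm44812 lie with it within 238325 bases (GRCm39, chr7:70001692-70240016). Gm44532 was at 8.92, 26.6 and 41.6 CPM in S-dominant and at 123, 237 and 319 CPM in other cones (log2 fold change -3.25 ± 0.26, adjusted p = 7.5e-06, edgeR, and -3.68 under the stricter setting). Gm35842, also a noncoding RNA gene, was at 0.765, 1.56 and 2.79 CPM against 7.62, 18.1 and 25 CPM (-3.32 ± 0.21), from 40 and 463 UMIs. Gm44532 and Gm35842 were lower in every mouse. Gm35842 was near the floor in S-dominant cones and passed the filter on low counts through the other cones. Its difference is therefore a description only. Gm28258 and Gm44812 were chosen after their values were seen, and no test of the neighborhood as a group was made. Gm28258, which is 5152 bases away from Nr2f2 on the same strand, was at 0, 0.255 and 2.22 CPM against 5.34, 11.0 and 25.2 CPM, from 13 and 365 UMIs. It was likewise near the floor in S-dominant cones. Gm44812 was at 0, 3.13 and 4.19 CPM against 7.62, 20.5 and 34.6 CPM, and it overlaps Gm35842 on the same strand, so that reads shared by them cannot be told apart. Nr2f2 itself was at 0.501, 4.20 and 18.2 CPM against 9.15, 15.6 and 29.2 CPM, lower in 8 of 9 mice (-1.60 ± 0.36, adjusted p = 0.00972, edgeR, and -1.94 under the stricter setting).

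Among 28 listed regulators of opsin and photoreceptor fate, 26 were tested, 5 were higher and 3 lower, beside 6.51% and 7.48% of all genes, and 18 did not pass, with a median log2 fold change of 0.00 beside 0.01 for all genes. Rxrg, the retinoid X receptor that pairs with Thrb, was at 56.9, 85.1 and 122 CPM in S-dominant and at 33.0, 50.2 and 73.3 CPM in other cones (0.70 ± 0.10, adjusted p = 0.000629, edgeR, and 0.32 under the stricter setting). Samd7, which helps silence cone genes in rods, was at 39.1, 48.7 and 149 CPM against 102, 150 and 241 CPM (-1.05 ± 0.14, and -1.32 under the stricter setting). Its highest values came from S04, S05 and S07, the mice with the highest sums of these rod markers. Thrb was at 1516, 1653 and 2283 CPM against 1349, 1836 and 2248 CPM (-0.10, adjusted p = 0.265, edgeR), a difference that passed only among cones with at least 10 opsin UMIs (-0.30, adjusted p = 0.00844, edgeR). Rorb had a log2 fold change of -0.12 and Otx2 of -0.03, both with adjusted p above the threshold in edgeR (0.178 and 0.785). Otx2 changed its sign under the stricter setting (0.29, adjusted p = 0.0477, edgeR), where Rorb was at 0.01. Under the stricter setting 2 of 25 regulators were higher and 3 lower. Thus most of the listed regulators did not pass in this comparison.

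Of 15 dorsal and ventral genes, 6 could be tested, with 1 higher and 2 lower, beside 6.51% and 7.48% of all genes. Their median log2 fold change was -0.24 beside 0.01 for all genes. Under the stricter setting 1 of 5 was higher and 1 lower, beside 2.27% and 2.23%, with a median of 0.15 beside 0.00. Nr2f2, described above, was among the lower genes and is also in the list of regulators. Vax2, a homeobox gene of ventral retina, was at 20.9, 35.6 and 66.5 CPM in S-dominant and at 12.0, 17.6 and 47.2 CPM in other cones, higher in 9 of 9 mice (0.74 ± 0.14, adjusted p = 0.00392, edgeR, and 1.18 under the stricter setting). Tafa3, a secreted protein gene linked to S-cones, differed by 0.34 and 0.29 on the log2 scale, and it is with Ccdc136 the only tested member of that short list. The list of genes linked to S-cones was taken from prior knowledge of such cells and is no independent sign of direction.

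Among 24 genes of cone phototransduction, 19 were tested beside the rule genes, with 13 higher and 1 lower, beside 6.51% and 7.48% of all genes, and a median of 0.22 beside 0.01. With at least 10 opsin UMIs this became 3 higher and 0 lower, beside 2.27% and 2.23% of all genes, with a median of 0.04 beside 0.00. Gnb3, the cone transducin beta subunit, was at 460, 669 and 917 CPM in S-dominant and at 298, 478 and 566 CPM in other cones (0.60 and 0.31 on the log2 scale). Guca1a, a guanylate cyclase activator, was at 210, 291 and 458 CPM against 153, 184 and 314 CPM (0.64 and 0.37). The opsin kinase gene Grk1 differed by 0.43 and 0.20. These 3 genes were those that passed under both settings. Gngt2, the cone transducin gamma subunit, went from 0.53 to 0.18 (adjusted p = 0.535, edgeR) under the stricter setting, and Gucy2f, a guanylate cyclase with its highest levels in S04, S05 and S07, from -0.51 to -0.12 (adjusted p = 0.782, edgeR). Of the 13 higher calls in this list, most were thus lost when cells with few opsin UMIs were left out.

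Of 25 synapse genes 7 were higher and 1 was lower, beside 6.51% and 7.48% of all genes, with a median of 0.06, and under the stricter setting 4 were higher and 3 lower, beside 2.27% and 2.23%. The same shares of all genes apply to the next lists. Elfn2, a transsynaptic adhesion protein gene, was at 42.0, 93.6 and 122 CPM in S-dominant and at 29.2, 53.4 and 84.1 CPM in other cones (0.61 and 0.88). Rims2, an active zone scaffold, differed by 0.23 and 0.20. Among 17 outer segment and cilium genes, 6 were higher and 2 lower, which became 0 higher and 4 lower. Impg1, a component of the matrix around photoreceptors, was lower by both settings (-0.35 and -0.59), as was Nxnl2 (-0.88 and -1.15). Cdhr1, a cadherin of the disc margin, had -0.06 and -0.40, of which the latter passed (adjusted p = 0.00054, edgeR). Of 18 stress genes 9 were tested and 2 were higher, Socs3 and Ddit3, the latter by 0.39 (adjusted p = 0.0156, edgeR) and by 0.42 under the stricter setting (adjusted p = 0.0505, edgeR). Bipolar markers had a median of -0.67 with 1 of 4 lower, and a median of 0.04 with none passing under the stricter setting.

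Within the S-dominant cones, the 361 cells without Opn1mw were compared with the 1075 that had at least 1 UMI of it. A cell without Opn1mw may be a true S-cone or one in which the molecule was missed. The cells without Opn1mw were set apart by higher Nrxn3, a neurexin of synaptic adhesion, Wscd2, a sulfotransferase, and Trhde, which degrades thyrotropin-releasing hormone. Lower in them were Alk, a receptor tyrosine kinase, and Tshz2, a zinc finger factor. In edgeR's quasi-likelihood test with the mouse as a block, 320 of 7964 genes (4.02%) passed, 115 higher (1.44%) and 205 lower (2.57%). With at least 10 opsin UMIs, which left 267 and 1058 cells, 374 of 7377 passed (5.07%), 174 higher (2.36%) and 200 lower (2.71%), including 73 of the 115 and 147 of the 205. The cells without Opn1mw had a median of 11331 UMIs, beside 12321.5 in all S-dominant cones.

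Nrxn3 was at 6246, 8586 and 11063 CPM (lowest, median and highest mouse) in cells without Opn1mw and at 622, 1986 and 4417 CPM in those with it, a log2 fold change of 2.24 ± 0.24 (adjusted p = 0.000202, edgeR) that was the same, 2.24, among cells with at least 10 opsin UMIs. Wscd2 was at 78.7, 165 and 209 CPM against 6.66, 27.6 and 52.4 CPM (2.45 ± 0.17, adjusted p = 2.81e-05, edgeR). Trhde was at 206, 280 and 464 CPM against 46.3, 73.8 and 158 CPM (1.89 ± 0.18). The ranges of these 3 genes did not overlap, and they were the only ones of the 15 higher genes with the smallest p of which this was true. Eya1, already high in S-dominant cones, was higher still, at 125, 194 and 353 CPM against 69.3, 147 and 211 CPM (0.76, and 1.08 under the stricter setting). The T-type calcium channel gene Cacna1h was at 116, 387 and 531 CPM against 73.3, 186 and 262 CPM (0.96 and 0.87), and the phospholipase-like gene Plcl1 at 518, 937 and 1045 CPM against 391, 579 and 665 CPM (0.67 in both). Eya1, Cacna1h and Plcl1 were higher in 9 of 9 mice, with overlapping ranges. Between all S-dominant and other cones Cacna1h had differed by -0.08 (adjusted p = 0.73, edgeR), but with at least 10 opsin UMIs, where the other cones were at 28.2, 44.5 and 82.2 CPM, it was higher by 2.11 (adjusted p = 4.63e-06, edgeR).

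The others among the 15 higher genes were Col4a5, a basement membrane collagen chain (1.59), Abi3, an adapter of actin remodeling (1.29), Pitpnc1, a phosphatidylinositol transfer protein (1.05), Agbl4, a tubulin deglutamylase (0.71), Gm32618 (0.70), Cfap61, a radial spoke gene (0.69), and the kinase gene Rps6ka5 (0.60), all of which passed again under the stricter setting. Abi3 overlaps Gngt2 on the opposite strand of chromosome 11, so that their reads can be separated only by strand. The stricter setting removed Adamtsl1 (1.21 to -0.17, adjusted p = 0.902, edgeR) and Cabp5 (1.11 to 0.45, adjusted p = 0.213, edgeR). Cabp5 is a calcium-binding protein of bipolar cells and belongs to the bipolar markers, of which it alone of 4 was higher in cells without Opn1mw, and none of the 3 tested passed under the stricter setting.

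Among the 15 lower genes, 11 had ranges that did not overlap, and all 15 passed again among cells with at least 10 opsin UMIs. Alk was at 19.8, 47.7 and 149 CPM in cells without Opn1mw and at 233, 411 and 607 CPM in those with it (-3.02 ± 0.24, adjusted p = 3.91e-05, edgeR). Tshz2 was at 79.5, 101 and 245 CPM against 411, 572 and 689 CPM (-2.27 ± 0.19). Fzd10, a Wnt receptor gene, was at 0, 2.69 and 8.81 CPM against 16.8, 41.8 and 64.7 CPM (-3.40 ± 0.30), from 17 and 653 UMIs. Near the floor in the cells without Opn1mw, Fzd10 passed the filter on low counts through the cells with it. Its difference, the greatest among these genes, is therefore a description only. Nptx1, a neuronal pentraxin that gathers glutamate receptors, was at 11.0, 18.2 and 36.3 CPM against 69.3, 113 and 146 CPM (-2.34). Kcne2, which was higher in S-dominant cones as a whole, was lower in the cells without Opn1mw, at 55.1, 106 and 200 CPM against 136, 255 and 396 CPM (-1.10). Smaller differences were found for Osbpl3, a lipid transfer protein (-1.47), the dynein heavy chain gene Dnah9 (-1.34), Uap1, of hexosamine synthesis (-1.20), the palmitoyltransferase gene Zdhhc14 (-0.96) and Epb41l1, of the membrane skeleton (-0.93). Plcz1 (-2.11), Gm42697 (-2.20), ENSMUSG00000121382 (-2.44), Nexmif (-1.60) and Jchain (-1.60) completed the 15.

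Of 21 regulators of opsin genes tested within the S-dominant cones, 2 were higher and 3 lower, beside 1.44% and 2.57% of all genes, and 16 did not pass, with a median of 0.05 beside 0.01. Under the stricter setting 5 were higher and 3 lower, beside 2.36% and 2.71%. Thrb was at 998, 1166 and 1606 CPM in cells without Opn1mw and at 1639, 1784 and 2509 CPM in cells with it, without overlap and lower in 9 of 9 mice (-0.62 ± 0.07, adjusted p = 0.000256, edgeR, and -0.56 under the stricter setting). Rorb was at 517, 771 and 1169 CPM against 499, 551 and 754 CPM (0.39, adjusted p = 0.0276, edgeR, and 0.45). Otx2, a homeobox gene of photoreceptor fate, was at 165, 200 and 224 CPM against 113, 137 and 175 CPM (0.54 and 0.48). Samd7 (-0.96 and -1.37) and the coactivator gene Ppargc1a (-0.59 and -0.46) were lower. Over 20 alternative settings, the call was lost in 10 for Samd7, in 9 for Rorb and in 1 for Otx2. It was lost in 0 for Thrb and for Ppargc1a. Rxrg had a difference of 0.27 (adjusted p = 0.339, edgeR), and 0.59 with an adjusted p of 0.005 under the stricter setting. Of the genes that set S-dominant cones apart, Syndig1l (-0.88) and Cdcp3 (-0.65) were lower in the cells without Opn1mw, and Ccdc136 differed by 0.07 (adjusted p = 0.83, edgeR), with 0.38 under the stricter setting (adjusted p = 0.005, edgeR). Lhx4 was higher there, at 27.8, 84.1 and 171 CPM against 26.6, 32.9 and 43.3 CPM (1.46 ± 0.25, and 1.14 under the stricter setting), so that its low level in S-dominant cones was that of the cells with both opsins.

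For the other lists, the counts between cells without and with Opn1mw stand beside 1.44% of all genes higher and 2.57% lower. Under the stricter setting these shares of all genes were 2.36% and 2.71%. Of 19 phototransduction genes 1 was higher, Guca1b (0.53), and 1 lower, recoverin (Rcvrn, -0.44). The Guca1b and Rcvrn calls were lost in 10 and 12 of 20 alternative settings. Under the stricter setting 3 were higher, Guca1b (0.50), Gngt2 (0.70) and Gnb3 (0.34). Of the S-cone-linked genes neither passed, and both did under the stricter setting, Ccdc136 as above and Tafa3 at 0.45 (adjusted p = 0.00277, edgeR). None of the 25 synapse genes passed under either setting. Of 15 outer segment genes 1 was lower, and 1 was higher under the stricter setting. No stress gene of 9 passed, with a median of 0.44 beside 0.01 for all genes. Under the stricter setting 1 of 7 was higher, with a median of -0.06 beside 0.02. None of the 3 dorsal and ventral genes tested passed, with a median of -0.24. Among rule genes, described without a test, Arr3 was at 2417, 3640 and 5071 CPM in cells without Opn1mw and at 3534, 6385 and 8932 CPM in cells with it, and Cngb3 at 2004, 3550 and 4422 against 1816, 2486 and 3614 CPM. Opn1sw was at 2071, 2767 and 3221 CPM against 1653, 2615 and 3474 CPM.

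Placing the S-dominant cones beside the others by opsin content showed how these genes were arranged. Cones with at least 10 opsin UMIs were divided into 643 with Opn1mw alone, 444 with both and at least as much Opn1mw, 1058 with both and more Opn1sw, and 267 with Opn1sw alone. These levels are a description, since the classes follow the rule. Ccdc136 was at 81.2 to 169 CPM over the mice in the first class and at medians of 1069, 2204 and 2698 CPM in the next ones, and Eya1 had medians of 19.1, 51.5, 144 and 308 CPM in that order, so that both climbed with each step. Nrxn3, at 1408, 2166, 2006 and 8308 CPM, and Wscd2, at 7.86, 11.0, 27.8 and 193 CPM, stood out in the cells with Opn1sw alone. Thrb went the other way, at 2319, 1897, 1765 and 1205 CPM, and so did Tshz2, at 838, 627, 584 and 114 CPM. Alk was high where both opsins were present, at 181, 373, 415 and 48.7 CPM. Smug1 stood at 289, 157, 41.7 and 46.6 CPM, and Gm44532 at 435, 182, 17.8 and 60.1 CPM, both lowest where Opn1sw was the higher or the only opsin. En2 was at 0, 1.64, 23.6 and 24.3 CPM and Cdcp3 at 57.3, 408, 932 and 710 CPM. Arr3 fell along the order, at 10743, 6431, 6398 and 3908 CPM.

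**Figure D3:**
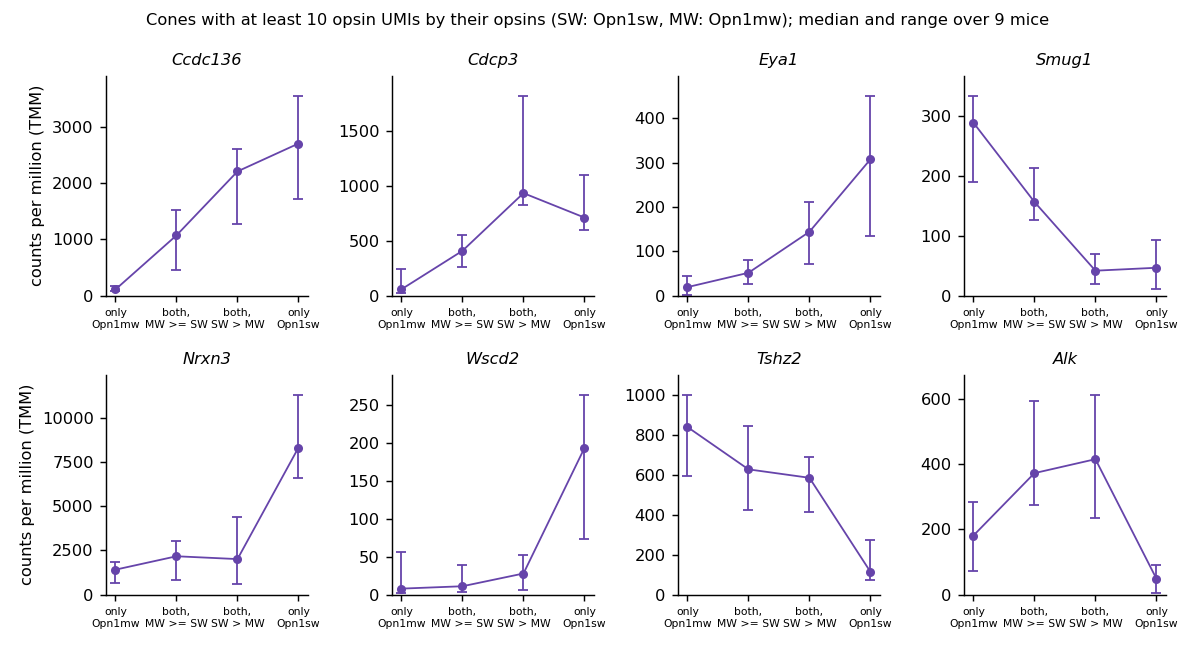
Points give the median over 9 mice of the TMM-normalized level in CPM (y axis), and bars the lowest and highest mouse, in 4 classes of cones with at least 10 opsin UMIs from Opn1mw alone to Opn1sw alone (x axis). Ccdc136 and Eya1 climb at each step, whereas Nrxn3 reaches 8308 CPM and Wscd2 193 CPM only in cells with Opn1sw alone, where Tshz2 and Alk have their lowest medians.

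The study's design compared control with dKO mice. The share of S-dominant cones among cones was 41.3%, 43.4%, 46.9% and 49.0% in the 4 control mice (45.1% ± 3.45, SD, n = 4), and it was 57.1%, 47.7%, 46.5%, 46% and 44.2% in the 5 dKO mice (48.3% ± 5.11, SD, n = 5). The groups overlapped, and the difference of 3.16 percentage points gave p = 0.365 in a two-sided exact permutation test over mice (0.438 after Benjamini-Hochberg adjustment over 6 tests of shares and opsin levels), where the smallest possible p is 0.0159. S05 had the highest share, and without it the difference was 0.95 percentage points. Its 2 wells had 65.3% and 51.0%, the greatest distance between wells of a mouse, while the median distance was 3.54 percentage points. With at least 10 opsin UMIs the shares were 52.3%, 48.8%, 52.9% and 56.0% in control and 65.0%, 59.9%, 60.7%, 54.9% and 53.3% in dKO mice, a difference of 6.25 percentage points (exact permutation p = 0.0794).

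Cells without Opn1mw made up 32.0%, 23.0%, 27.3% and 29.2% of the S-dominant cones in control mice (27.9% ± 3.78, SD, n = 4) and 29.2%, 20.8%, 15.1%, 31.1% and 25.1% in dKO mice (24.3% ± 6.45, SD, n = 5). The difference of -3.61 percentage points was within the spread between mice (exact permutation p = 0.365). This share depends on depth, because a shallow cell more often misses its Opn1mw molecules. After thinning each cone to 3000 UMIs, which left out 125 cones that were shallower (48 control and 77 dKO), the share rose to between 29.6% and 44.8%, and the difference was -1.76 percentage points (exact permutation p = 0.714). The share of S-dominant cones then differed by 2.03 percentage points (exact permutation p = 0.587).

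**Figure D4:**
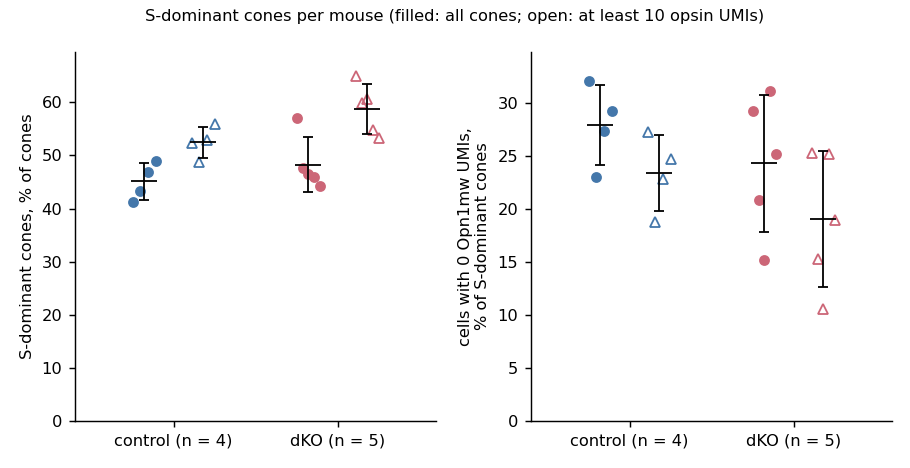
Points are mice, with the share of S-dominant cones among cones (left) and of cells with 0 Opn1mw UMIs among S-dominant cones (right) in percent on the y axis, for all cones (filled) and cones with at least 10 opsin UMIs (open), and black marks give the mean and SD. Control and dKO mice overlap in both panels, and the S-dominant share of 57.1% is that of S05.

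These CPM use the summed totals of a mouse. Over all cones, which the opsin rule does not affect, Opn1sw was at 1389, 1386, 1721 and 1260 CPM in control and at 1266, 1305, 938, 1336 and 1556 CPM in dKO mice, a difference of -0.18 on the log2 scale (exact permutation p = 0.302). Opn1mw was at 1361, 1849, 1523 and 1294 CPM in control and at 855, 945, 764, 1376 and 1655 CPM in dKO mice, a difference of -0.48 (exact permutation p = 0.143). The 3 lowest Opn1mw values belonged to dKO mice, and the remaining dKO values lay within the control range. Among these 3 values were those of the males S05 and S07, at 855 and 764 CPM. Without the males S04, S05 and S07 the Opn1mw difference was -0.28 (exact permutation p = 0.5). Neither the Opn1sw nor the Opn1mw difference passed. Within S-dominant cones the rule used both opsins, so that their levels there are described only and support no result. Both were nevertheless among the 6 tests that were adjusted together. Opn1sw was at 2971, 2414, 3267 and 2581 CPM in control and at 2097, 2546, 1715, 2652 and 3242 CPM in dKO mice (-0.22 on the log2 scale). Opn1mw was at 540, 877, 724 and 512 CPM against 521, 591, 479, 603 and 800 CPM (-0.13), and the groups overlapped for both. After adjustment over the 6 tests the p-values over all cones were 0.438. Opn1sw made up 80.8% ± 5.11 (SD, n = 4) of the opsin UMIs of S-dominant cones in the control mice, beside 80.2% ± 1.3 (SD, n = 5) with the knockout.

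Across all genes of the S-dominant cones, edgeR's quasi-likelihood test called 0 of 11206 genes (0%) between dKO and control, with 155 at an unadjusted p under 0.05, and limma-voom also called 0, with 180. With Xist as a covariate for sex it was 0, with 223. DESeq2 called 1, Sel1l3. Sel1l3, a membrane protein gene, was at 126, 154, 134 and 90.9 CPM in control and at 73.3, 31.4, 25.5, 50.9 and 41.6 CPM in dKO mice. Each dKO mouse lay below each control mouse, with a log2 fold change of -1.53 ± 0.28 (SE). Its unadjusted p was 0.00024 in edgeR, where Sel1l3 did not pass after adjustment, and its adjusted p was 0.00551 in DESeq2. Sel1l3 and the genes named next were picked by small p in these same mice. The share of all genes without overlap between the groups was not counted, so that a lack of overlap is a description only. Mtfp1, a mitochondrial fission gene, had the opposite order at a low level, with 3.75, 3.74, 2.92 and 2.11 CPM in control and 10.2, 7.09, 7.57, 5.66 and 7.44 CPM in dKO mice (1.19 on the log2 scale, not passing after adjustment). The other 3 of the 5 genes with the smallest p were Zcchc4 (-0.46), ENSMUSG00000120312 (0.91) and E430024P14Rik, none of which passed in edgeR, limma-voom or DESeq2. Of the 24 phototransduction genes, which here included the 5 cone genes of the rule, none passed, with a median of -0.04 beside 0.00 for all genes.

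**Figure D5:**
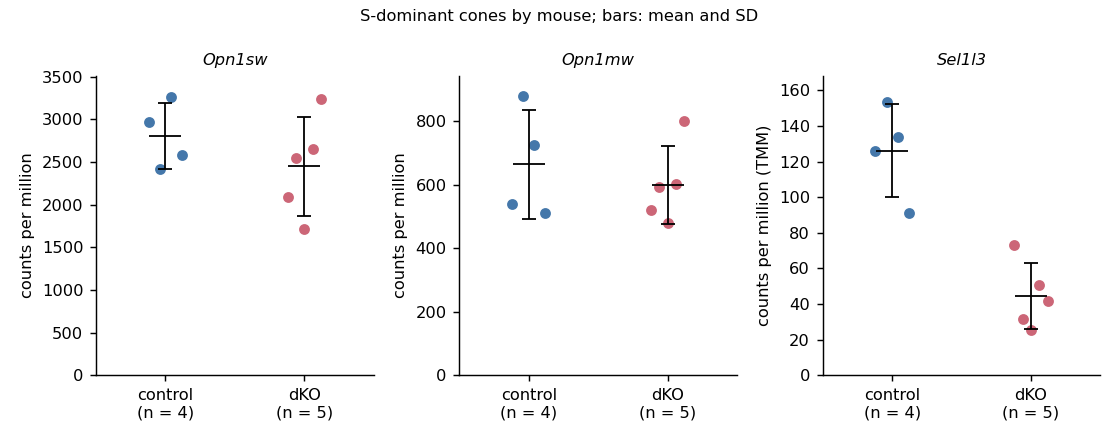
Points are mice, with the level in S-dominant cones in CPM on the y axis for Opn1sw, Opn1mw and Sel1l3, and black marks give the mean and SD of the 4 control and 5 dKO mice. The groups overlap for both opsins, whereas the 5 dKO values of Sel1l3 (25.5 to 73.3) lie below the 4 control values (90.9 to 154). Sel1l3 was picked by its small p in these mice.

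Whether the dKO difference itself was unlike between S-dominant and other cones was tested as an interaction. edgeR called 0 of 12672 genes (0%), with 672 at an unadjusted p under 0.05, and limma-voom called 0 with 827. The smallest p belonged to Timp3, an inhibitor of matrix metalloproteinases that the retinal pigment epithelium makes in quantity, which in S-dominant cones ranged from 40.9 to 155 CPM in control and from 31.0 to 264 CPM in dKO mice (medians 120 and 65.1), and in other cones from 28.4 to 89.5 CPM and from 85.4 to 342 CPM (medians 65.6 and 117). Its interaction was -1.73 on the log2 scale with an adjusted p of 0.134 in edgeR. The next 4 genes, Gulp1 (-0.92), Osmr (-1.84), Fat1 (-2.50) and Scel (-4.05), did not pass either. Müller glia markers summed to medians of 3.03 and 1.96 per 10000 UMIs in the S-dominant cones of control and dKO mice and to 2.64 and 3.88 in the other cones. Retinal pigment epithelium markers (Rpe65, Best1, Rgr, Lrat and Rdh5) moved the same way, with medians of 1.56 (0.261 to 2.52) in control and 0.344 (0.237 to 2.30) in dKO mice for S-dominant cones and of 0.508 (0.144 to 0.898) and 0.747 (0.301 to 4.48) for other cones. In the interaction the median of the 4 such markers tested was -1.98 and that of the 5 Müller glia markers -1.08, beside 0.01 for all genes, with 4 of 4 and 5 of 5 at an unadjusted p under 0.05 and none passing after adjustment in edgeR. The part of these cells' RNA in the interaction values was not tested.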

How the data were processed

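The authors deposited 1 matrix of UMI counts (raw counts per gene and cell) for 31089 cells and 37725 genes. Per the labels and the study's methods, cells were dissociated with papain, fixed, barcoded by split-pool combination in 8 sublibraries, and the reads were mapped to GRCm39 with split-pipe at default settings, after which cells with few genes and genes in few cells were removed in Seurat 4.3.0 under R 4.2.2. Each cell's counts summed to its listed total in all 31089 cells.

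Members and gene lists were chosen with earlier results of these data known. Counts were summed per mouse and class, with all 9 mice having at least 10 cells in each. Genes were tested with edgeR 4.0.16 (quasi-likelihood, TMM, filterByExpr, Benjamini-Hochberg adjustment over all genes tested, threshold 0.05), with the mouse as a block where 2 classes of 1 mouse were compared, since both come from the same animal. The 7 rule genes were left out of the tests between classes and of the interaction, and were tested only between dKO and control mice. CPM by class uses TMM library sizes, whereas opsin levels per kilobase, in control against dKO mice and in pooled cells use the summed totals. Shares and opsin levels were compared by exact permutation over mice (scipy 1.17.1). Named genes were the 15 with the smallest p in each direction past the threshold, the 5 with the smallest p where fewer passed, listed genes, and those said to be chosen after their values were seen. Alternatives used DESeq2 1.42.0, limma 3.58.1 (voom), other filters, margins and thinning. Removal of cells under 10 opsin UMIs and of shared barcodes was added after seeing the data. Cell types other than cones were called by at least 3 markers of a list of 5, or of 4 for rods and bipolar cells, from each of whose lists 1 gene is not reported here and was left out. Free RNA and doublets were not corrected. Positions are from GRCm39 (GENCODE), promoter letters from RefSeq (GRCm38.p6).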

Additional observations from a re-analysis of the deposited data

Results flagged for a closer look

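In 82 groups of 4 or 5 mice examined, 7 held a value far from the others of its group, and chance alone gives such a value in about 1 of 20 groups. The share of S-dominant cones among cones was 57.1% in the dKO mouse S05, above the 44.2% to 47.7% of the other 4 dKO mice. The remaining values are log2 ratios of S-dominant to other cones of 1 mouse, each apart from the mice of the same group. They were 0.695 for Pgs1 in control mouse S04, 0.271 for Bach2 in control mouse S02, 0.825 for Rab27b in control mouse S01 and 2.00 for Socs3 in control mouse S03. D930007P13Rik was at -1.01 in dKO mouse S07 and Gm44532 at -4.02 in control mouse S02. Each of these ratios had the sign of the other mice.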

How the results depend on the processing

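The count of genes that differed between S-dominant and other cones was 1618, and it was 515 with no replicate block (the mouse pairing left out), 535 with a 2-fold margin between the opsins and 472 with at least 10 opsin UMIs per cell. Leaving out 1 mouse gave 1227 to 1809. The count between cells with 0 and with 1 or more Opn1mw UMIs was 320, and it was 640 with no filter on low counts, 777 without the top 5% of cones by UMIs, 218 with no replicate block and 194 to 324 with 1 mouse left out, with 208 without S01, 207 without S03, 194 without S08 and 211 without S09. Between dKO and control DESeq2 called 1 gene where edgeR called 0, and leaving out 1 mouse gave 0 each time. The interaction had 0 calls and 247 with no filter on low counts. No paired analysis was possible because control and dKO mice share no replicate numbers. The dKO difference in the share of S-dominant cones was 0.951 to 4.45 percentage points with 1 mouse left out, and that of cells without Opn1mw -5.31 to -1.32. On the log2 scale, signs turned in S-dominant against other cones with at least 10 opsin UMIs for Gm48693 (0.31), Cacna2d1 (0.24), Otx2 (0.29), Rorb (0.011) and Cacna1h (2.11), with the 2-fold margin for Otx2 (0.34), Rorb (0.031) and Cacna1h (1.44), and with shared barcodes left out for Cacna1h (0.0036). For Otx2, S-dominant against other cones, the difference lay between -0.055 and 0.0013 with 1 mouse left out. Between cells with and without Opn1mw, signs turned for Adamtsl1 with at least 5 Opn1sw UMIs (-0.14) and at least 10 opsin UMIs (-0.17), for Gnb3 without the top 5% of cones (-0.074) and without S04, S05 and S07 (-0.029), and for Ccdc136 under the same settings (-0.068 and -0.040). The cause was not tested. Summing S06 and S07 changed the side of the threshold for 5 named genes and for none of the 8 main results.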
